A study of Mus musculus with 40 samples.

Results

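The cytosines described here belong to 9587 CpGs whose C on the plus strand and C on the minus strand were both read by reduced representation bisulfite sequencing (RRBS) of mouse liver. They were found as pairs of listed cytosines at adjacent positions of a chromosome, each with at least 10 reads in at least 36 of 40 mice, outside a segment of chromosome 17 that held 90 further pairs. Of 24497 adjacent pairs in the table, 10160 met this rule. The mm9 reference sequence showed that 9587 of them were the 2 strands of one CpG, while 555 joined the G of a CpG to the C of the next one, and 18 on unplaced contigs were not checked. The 9587 CpGs take up 19174 of the 262317 cytosines covered in at least 36 mice. The rule used only position and coverage, and CpGs just outside it, covered in 35 mice, had a median absolute difference between strands of 0.570 points of percent methylation over 4446 CpGs, against 0.596 over the 3818 covered in exactly 36 mice.

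The animals were male C57BL/6 mice (C57BL/6J in the study's methods) of 9 weeks in 4 groups of 10. Their dams ate a low-fat (LF) or a high-fat (HF) diet before mating and until weaning, and the offspring were then fed LF or HF, so that every combination of maternal and post-weaning diet was covered. The same dam can have borne several of the mice, and the labels used here do not name the litter. RRBS measures no expression, so the liver label could not be checked against marker genes.

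A CpG reads the same on both strands, which is why a methyl group on one strand can be copied to the other after replication. Uhrf1 binds the half-methylated CpG left by replication and recruits Dnmt1, the maintenance methyltransferase, which methylates the new strand. A CpG with a methyl group on one strand alone is called hemimethylated. RRBS cuts DNA with MspI at CCGG and sequences from the cut ends, and each read reports only the strand it came from, so the values of both strands come from separate reads.

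At the CpG inside a CCGG, both strands were read at the first base of the read, from the fragments on either side of the cut. At 6 CCGG CpGs a neighbouring fragment was shorter than a read, and how their strands were read there is not established. At a CpG inside a short fragment, both strands were read from opposite ends of that one fragment. For 10 such CpGs the fragment was shorter than a read, and how their strands were read is not established either. There were 3251 CpGs of the first kind (33.9%) and 6320 of the second (65.9%), and 16 fitted neither. The fragment holding an interior CpG had a median length of 81 bp, with 69 to 93 bp covering 5% to 95% of them. By the annotation, 5152 CpGs lay in promoters (1000 bp upstream to 500 bp downstream of a transcript start), 1250 in exons, 1710 in introns and 1475 between genes. Of all, 24 lay on chromosome X and 2 on the mitochondrial genome.

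The reference sequences of the CpGs on which the results turn are given below in lower case with the CpGs read on both strands in capitals. All are the plus strand of mm9 (NCBIM37), 5′ to 3′. The first pair is shown because several neighbouring CpGs of one MspI fragment differed between strands, and the third because its single CpG had both strands near the midpoint.
Mid1 intron fragment, chrX:166435469-166435541: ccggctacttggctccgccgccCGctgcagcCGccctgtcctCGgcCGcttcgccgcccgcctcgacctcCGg
chromosome 13 fragment, chr13:120277194-120277271: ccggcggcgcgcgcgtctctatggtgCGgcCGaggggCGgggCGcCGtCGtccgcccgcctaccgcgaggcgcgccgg
Mest intron fragment, chr6:30689253-30689335: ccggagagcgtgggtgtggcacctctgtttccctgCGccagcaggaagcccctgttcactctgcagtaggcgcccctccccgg
The next 4 sites are shown with 30 bases around the CpG, 2 because their strands stood far apart, 1 because its strands had equal means and 1 because it lies at the imprinted gene Plagl1.
Drg1 site, chr11:3093472-3093501: aaCGCGacccgcgcCGgaagctgctctgtc
chromosome 7 site, chr7:7230831-7230860: aacccccgtctgccCGgggacgccgccgcc
Rps6ka1 site, chr4:133432697-133432726: gagcataagggatcCGggagggatcagggt
Plagl1 site, chr10:12810726-12810755: gggcatctcctgggCGccgtcatggctgct

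Reads at CpGs summed to between 2969907 and 23345592 per mouse. A mouse covered between 3853 and 9587 of the CpGs on both strands (median 9390.5), and 227 CpGs were covered in all 40. The median number of reads per strand and mouse lay between 13 and 57, with a median of 21 over the mice. A value from 10 reads moves in steps of 10%, and the read sampling alone gave the difference between the strands of a mouse an SD of 6.13 points. The reads carry no molecular identifiers, so the sampling errors cover counting error alone.

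The first comparison asked whether the strands of a CpG had the same methylation level. For 7706 of the 9587 CpGs (80.4%) the mean difference over mice was under 2 points, and the median absolute difference was 0.610 points. The 95th percentile was 4.22 points. The mean difference, taken as plus strand minus minus strand, ran from -72.1 to 48.4 points, and 38 CpGs reached 10 points in either direction.

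A paired Student t-test over the mice, with Benjamini-Hochberg adjustment over 9539 CpGs with a variance to test, found 97 CpGs with a strand difference at an FDR below 5%, which is 1.02% of those tested. The plus strand was higher at 64 of them (0.671%) and the minus strand at 33 (0.346%). Of these 97, 62 differed by less than 10 points and 35 by 10 points or more. Limma's moderated test gave 105 CpGs, while the Cochran-Mantel-Haenszel test, which takes reads as independent within a mouse, gave 299.

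**Figure D1:**
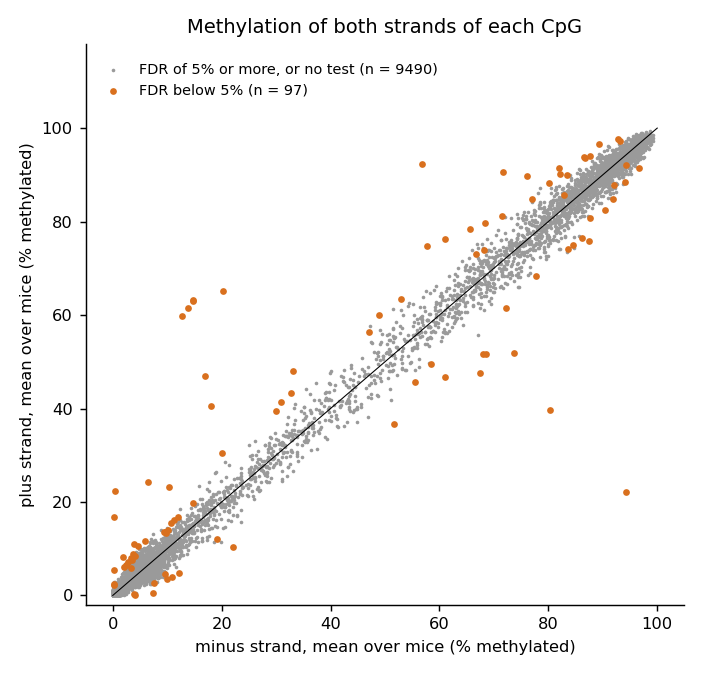
Each point is one CpG, with its mean percent methylated on the minus strand on the x axis and on the plus strand on the y axis, over the mice with both strands read; the line marks equal strands. The 97 CpGs with an FDR below 5% (orange) lie mostly near the line, with 38 of all 9587 CpGs at 10 points or more from equality.

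The called CpGs were spread unevenly over methylation levels and places. Among CpGs with a mean methylation below 5%, 10 of 4778 were called (0.209%). Among those from 30% to 70%, 27 of 644 were called (4.19%), and of those from 95% to 100%, 2 of 546. In promoters 36 of 5107 were called (0.705%), against 25 of 1709 in introns (1.46%) and 24 of 1474 between genes (1.63%). On chromosome X 16 of 24 CpGs were called, 15 of them at the single gene Mid1. All 15 were annotated to introns and were of intermediate methylation, and 9 of the calls between genes lay in a single cluster near Gm11668. Calls of one locus are not independent, and the shares without these loci were not computed.

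Coverage moved with these calls. Among the 1% of CpGs with the highest coverage, 45 of 96 were called (46.9%), and among the rest 52 of 9443 (0.551%). One strand had at least 2 times the reads of the other at 9 of the 97 called CpGs (9.28%), against 34 of all 9587 (0.355%). Deeper CpGs also have smaller errors, and the part of coverage in the calls was not tested.

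Reads from identical copies elsewhere in the genome could mix into a strand, so the sequences at the cut ends were searched after bisulfite conversion in the computer. Among 3240884 cut ends of 211 reference sequences, none matched the first 50 converted bases of a called CpG's reads exactly, at 85 called CpGs with a known read geometry or at 9486 that were not called. Over the first 30 bases, an exact match existed for 4 of the 85 called CpGs (4.71%) and for 203 of the 9486 others (2.14%). For the 31 of these called CpGs with a difference of 10 points or more, the number was 0. The 4 other called CpGs of that size, which fitted neither read geometry, were not searched. Copies that differ in a base, and copies absent from the reference, were not searched.

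When called CpGs within 2000 bp of each other were joined, the 97 made 65 loci. Of these, 59 held a single called CpG, and 5 loci with at least 3 held 36 of the 97.

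The gene with the most called CpGs was Mid1, which encodes a microtubule-associated E3 ubiquitin ligase and in the mouse spans the pseudoautosomal boundary of chromosome X. It held 21 of the CpGs, of which 15 were called, 13 with the plus strand higher. In an intron, the MspI fragment printed first above, with the CCGG at its right end, holds 5 CpGs whose plus strand had medians of 61.6, 63.9, 63.0, 65.0 and 66.5% methylated. Their minus strand had medians of 11.6, 14.4, 12.8, 13.7 and 17.2%. The 5 mean differences lay between 45 and 48.4 points. The first 4 of these CpGs were read from opposite ends of the fragment, and the last is the CpG of the CCGG.

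At the CpG at chrX:166435515-166435516 the plus strand ranged from 30.5% through a median of 65.0% to 83.3%, and the minus strand from 0% through 13.7% to 33.3%. The plus strand was higher in 40 of 40 mice, by 48.4 ± 1.76 points (SE), and the paired t-test gave an adjusted p of 8.98e-24. In the group of mice born from LF dams and fed LF, the strand medians were 69.95% and 16.2%, and in mice born from HF dams and fed HF they were 65.2% and 8.70%. The strand ranges of all mice touched only between 30.5% and 33.3%.

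The difference varied in size and direction along the locus. At the CCGG of chrX:166435743-166435744, the plus strand ranged from 20.8% through 43.8% to 76.1% and the minus strand from 0% through 8.89% to 53.1%. The difference was 29.8 ± 2.08 points (SE), in the same direction in 38 of 38 mice, with an adjusted p of 5.02e-14 in the paired t-test. The fragments on its sides measure 9 and 49 bp in the reference, both shorter than a read, so its minus value cannot be taken as a first-base reading. The next CpGs of the 49-bp fragment, with about the same 30 minus reads, had minus medians between 27.2% and 33.3%. At chrX:166435846-166435847 the difference was 2 points and the CpG was not called, and at chrX:166435873-166435874 the difference was -8.86 points. Elsewhere in the gene, at chrX:166418837-166418838, the minus strand was the higher, with a median of 60.5% against 41.7%. That difference was -9.84 points, in 27 of 37 mice, with an adjusted p of 0.0236 in the paired t-test.

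On chromosome 13, 6 CpGs lie in the fragment printed second, just upstream of the transcript 3110070M22Rik. For 5 of them the minus strand was the higher, and their mean differences ran from -10.7 at chr13:120277220-120277221 to -21.8 ± 2.42 points (SE) at chr13:120277239-120277240. At the latter the plus strand ranged from 8.33% through 51.9% to 76.9% and the minus strand from 55.8% through 73.5% to 91.1%. The minus strand was higher in 37 of 39 mice, with an adjusted p of 2.08e-08 in the paired t-test. Here, the ranges of the strands overlapped.

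The sixth CpG of that fragment lies 3 bp on, at chr13:120277242-120277243, and both of its strands were nearly unmethylated, with medians of 0% and 2.15%. Its difference was -1.46 ± 0.669 points (SE), in the direction of the other 5, and it was not called. A CpG this low leaves little room for a difference. The 7 CpGs measured just inside the transcript had medians between 83% and 88% on both strands and were not called either. They lie in fragments of 34 and 17 bp or at the CCGG between these, so how their strands were read is not established.

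**Figure D2:**
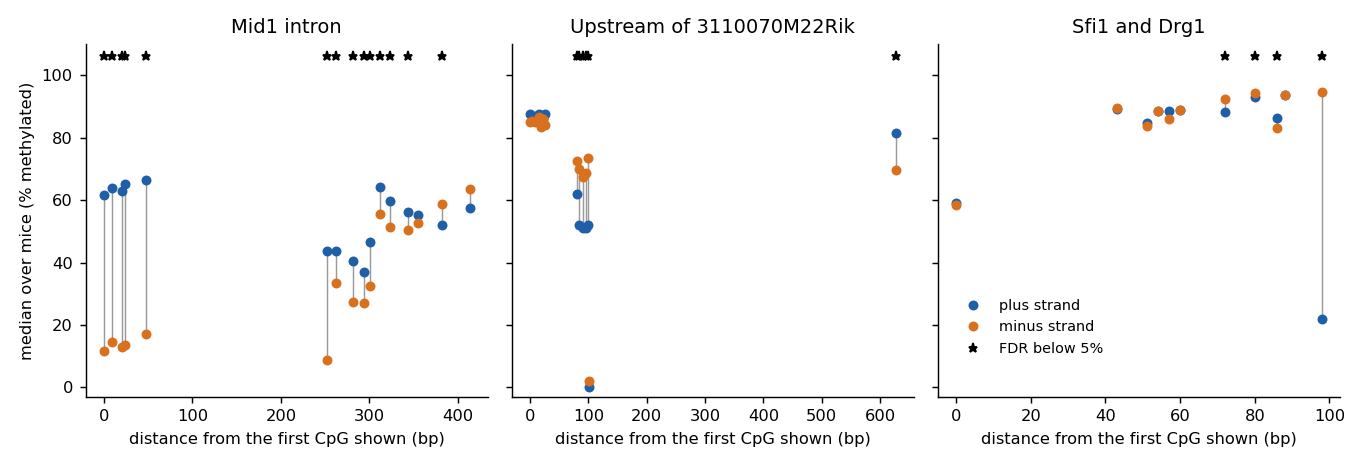
Median percent methylated over mice on the plus (blue) and minus (orange) strand against the distance in bp from the first CpG shown, at 3 loci; a star marks an FDR below 5%. At Mid1 the plus strand lies above the minus strand in the first 5 CpGs, by 45 to 48.4 points of mean difference, and at the last CpG of the Drg1 stretch the minus strand lies 72.1 points above the plus strand.

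The widest gap of all was at a CCGG in an intron of Drg1, a GTP-binding protein gene, at chr11:3093486-3093487. This site lies 20 bp upstream of a transcript start and counted among the promoters. Its plus strand ranged from 4.55% through 21.8% to 52.9% and its minus strand from 89.1% through 94.7% to 97.7%, with no overlap. The minus strand was higher in 36 of 36 mice, by 72.1 points with an SE of 1.87, and the paired t-test gave an adjusted p of 1.36e-26. The minus strand, read from a 55-bp fragment, had a median of 416 reads, while the plus strand, read from a 144-bp fragment, had 18.5. The part of this unequal depth in the difference was not tested.

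Other CpGs of the 55-bp fragment, part of them annotated to an untranslated region of Sfi1, had both strands between 83% and 94% methylated. Among those called, the differences were -4.08 points at chr11:3093460-3093461 and 2.87 points at chr11:3093474-3093475, with another call between them. The minus strand at the CCGG was near the level of its own fragment, and the plus strand, read from the next one, was below that level. No other CpG of that next fragment was among the CpGs described here. Whether the plus strand was at the level of the next fragment was therefore not tested.

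At a CCGG on chromosome 7, at chr7:7230845-7230846 and 4182 bp from Clcn4-2 (a chloride/proton exchanger gene), the plus strand ranged from 16.7% through 38.5% to 66.7%. The minus strand ranged from 60% through 81.8% to 96.0%. The difference was -40.6 ± 2.60 points (SE), with the minus strand higher in 33 of 34 mice and an adjusted p of 3.96e-14 in the paired t-test. The 2 fragments beside this site measured 166 and 87 bp.

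At a CCGG between genes on chromosome 6, at chr6:3132890-3132891, the plus strand was the higher. It ranged from 9.09% through 23.0% to 45.5%, and the minus strand from 0% through 6.78% to 18.8%. The difference was 17.7 ± 1.75 points (SE), in 36 of 36 mice, with an adjusted p of 2.16e-09 in the paired t-test. The fragments on its sides were 20 and 47 bp long in the reference, shorter than a read, and only 6 of the CCGG CpGs lay beside a fragment shorter than a read.

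Further called CpGs are mentioned after their values were seen, the first 2 for a minus strand with a median of 0%. At Gm16867, chr14:70008916-70008917, the plus strand had a median of 22.8% and the minus strand 0%, and at Fam169a, chr13:97841890-97841891, the medians were 16.5% and 0%. At Zfp180, a zinc finger gene, they were 40.5% and 16.7%, and the plus strand was higher in 40 of 40 mice. At Vegfa, which encodes an angiogenic growth factor, the mean difference was -11.7 points, with the minus strand higher in 30 of 36 mice.

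The 16 CpGs that fitted neither read geometry had a median of 1511 reads, and 12 of them were called (75%); how both of their strands came to be read is not known. Near Gm11668 on chromosome 11, 9 of them with medians of 1457.5 to 1582.5 reads had the plus strand higher by 3.59 to 13.0 points, with plus medians of 13.2% to 23.1% and minus medians of 9.68% to 15.1%. On chromosome X, at chrX:139917600-139917601 with Pak3 as the nearest gene, the medians were 92.1% on the plus strand at 2056 reads and 57.7% on the minus strand at 33 reads. These values, like those of the next genes, come from sites where depth was high or unequal.

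At the mitochondrial gene mt-Nd1, which encodes a subunit of respiratory complex I, the plus strand had a median of 6.16% and the minus strand 2.03%. Their depths differed, at 13669 against 193 reads, and at mt-Co1, which encodes a subunit of cytochrome c oxidase, the medians were 5.84% and 3.23% at 10520 and 1118.5 reads. Both were higher on the plus strand in 40 of 40 mice, and what unequal depth or unconverted cytosines contribute was not tested.

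Intermediate methylation also occurred with equal strands, which were ranked only within the deepest CpGs of 30% to 70%. At Rps6ka1, a gene of the ribosomal S6 kinase family, the CCGG at chr4:133432711-133432712 ranged from 13.5% through 41.5% to 66.7% on the plus strand. The minus strand ranged from 22.2% through 40% to 60%, and the mean difference was 0.0524 ± 2.33 points (SE). At chr2:70988342-70988343, 7359 bp from the iron reductase gene Cybrd1, the difference was -0.181 ± 2.65 points. The strand ranges overlapped at both CpGs.

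Imprinted genes carry one methylated and one unmethylated parental copy, so that a control region has an intermediate level on both strands. Of the CpGs, 17 lay in or within 5000 bp of 15 of 45 listed imprinted genes, and 1 was called, where 1.02% of all CpGs were. Their median absolute difference was 2.14 points, against 0.610 over all CpGs and 2.50 over those at 30% to 70%; the median of their mean methylation was 44.2%. Of the 17, 4 had a mean from 30% to 70%. At Mest, a hydrolase-like gene expressed from the paternal copy, the CpG at chr6:30689288-30689289 ranged from 25% through 50% to 77.3% on the plus strand and from 15.4% through 46.7% to 82.1% on the minus strand.

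The difference at Mest was 2.19 ± 3.17 points (SE). At Commd1, which hosts the imprinted Zrsr1, it was -4.39 ± 2.60 points at chr11:22871999-22872000, with medians of 47.6% and 51.7%. At Gnas, which encodes a G protein alpha subunit, it was -2.81 ± 3.34 points at chr2:174113221-174113222, with medians of 41.3% and 45.5%. At these 3 genes the strand ranges overlapped.

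Plagl1, a zinc finger transcription factor gene, was the exception in the list. At chr10:12810740-12810741, 60 bp from a transcript start, the plus strand ranged from 12% through 36.4% to 70.6% and the minus strand from 30.8% through 50% to 70%. The difference was -14.9 ± 2.29 points (SE), with the minus strand higher in 31 of 35 mice and an adjusted p of 5.46e-05 in the paired t-test. The minus strand was thus near the midpoint and the plus strand below it.

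**Figure D3:**
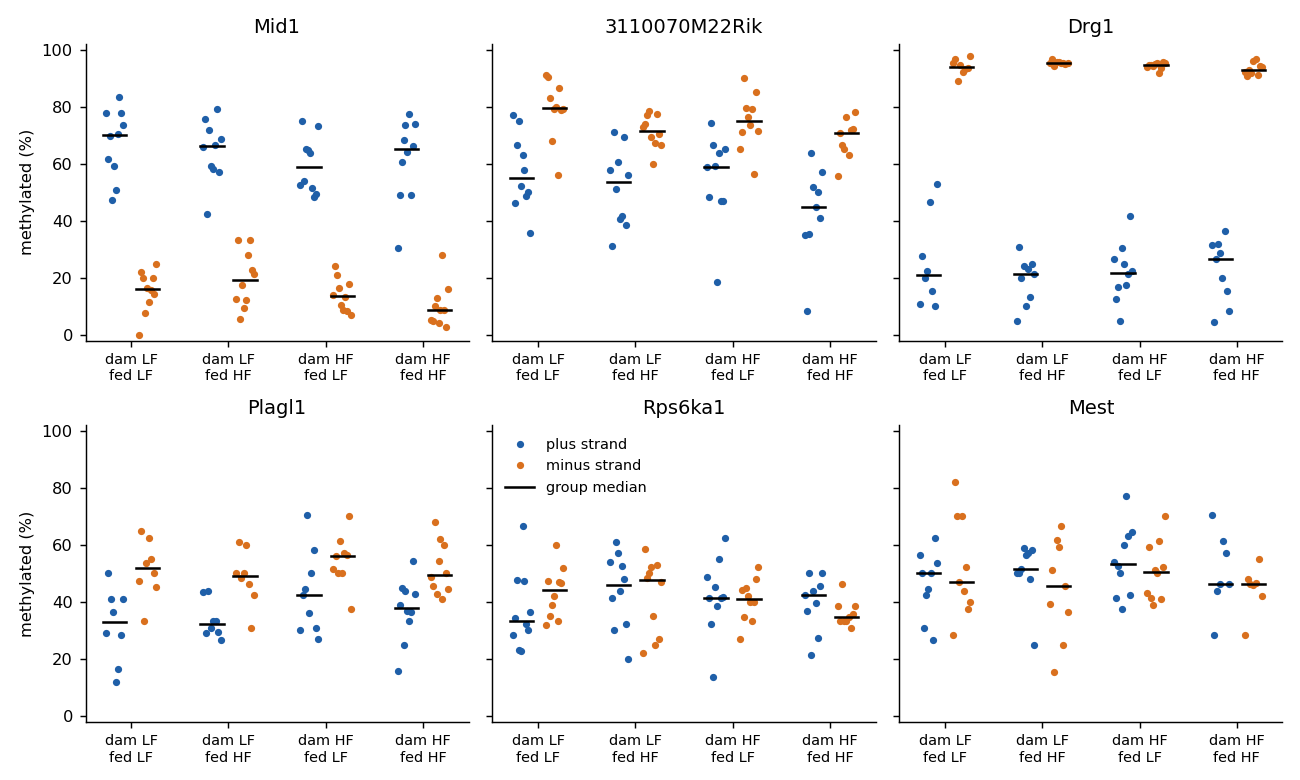
Percent methylated on the plus (blue) and minus (orange) strand in each mouse, by group of maternal and post-weaning diet, with group medians as black bars, at 6 CpGs named by their gene. The strands do not overlap at Drg1 (4.55% to 52.9% against 89.1% to 97.7%), and they overlap at Rps6ka1 and Mest in all 4 groups.

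The CpGs were also averaged within a mouse to ask whether one strand was higher throughout. The plus strand was higher than the minus strand by 0.0818 ± 0.147 points (SD over 40 mice), in 28 of 40 mice (sign-flip permutation p = 0.00058). Without the 1% of CpGs with the highest coverage, an alternative added after seeing the data, the difference was 0.0338 points (p = 0.124). Without the 21 CpGs of Mid1, also added after seeing the data, it was 0.0417 points in 25 of 40 mice (p = 0.0678). Mid1 was left out with its large plus excess known, so a smaller value was set by that choice. Over the 227 CpGs covered in all mice it was 1.79 points, and 0.656 points in 36 of 40 mice over the 213 of them outside Mid1 (p = 1e-05). With at least 20 reads it was 0.896 points, and 0.381 without Mid1 (p = 0.00013).

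Sense and antisense strands were compared at 6668 CpGs inside gene bodies of 1 strand only. The sense strand was higher by 0.113 ± 0.105 points, in 36 of 40 mice (permutation p = 1e-05, the smallest that 100000 resamples can give). Without the 1% with the highest coverage this was 0.0445 points in 30 of 40 mice (p = 0.00904). Without Mid1 it was 0.0536 points, also in 30 of 40 mice (p = 0.0017). Over the CpGs covered in all mice it was 1.88 points, but 0.103 points over the 135 of them outside Mid1 (p = 0.295). With at least 20 reads it was 0.897 points, and -0.000546 without Mid1 (p = 0.998). The large values of the sense excess in deep CpGs were thus not seen outside Mid1, which was left out with its differences known.

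Between the strand read nearer its cut and the strand read farther from it, over 6051 CpGs, the difference was 0.00433 ± 0.104 points, higher in 21 of 40 mice (p = 0.796). With at least 20 reads it was 0.119 points (p = 0.0545), and 0.110 points without Mid1 (p = 0.0374). The median over CpGs was 0 for all 3 averages.

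The next comparison set CCGG CpGs against interior CpGs, by the root mean square of the strand difference left after the variance expected from read sampling was taken off. It was 5.36 ± 0.671 points at CCGG sites and 3.81 ± 0.651 in fragment interiors (SD over 40 mice), higher at CCGG sites in 40 of 40 mice (permutation p = 1e-05). This order did not hold for all CpG sets: with CpGs of 5% to 95% methylation it was 5.85 against 6.97 points. Among the 227 CpGs covered in all mice it was 6.76 against 9.88 points, and both reversals had a permutation p of 1e-05. Without Mid1 the latter was 4.28 against 4.90 points (p = 0.134), so this reversal did not pass the test outside that gene. At 5% to 95% methylation without Mid1 it was 5.69 against 6.43 points (p = 2e-05). Of CCGG CpGs 36 of 3251 were called (1.11%) and of interior CpGs 49 of 6272 (0.781%), with the other 12 calls among the 16 CpGs of neither kind.

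A CCGG cytosine is the first base of its read, and the other CpGs of the same read come later. In a description added after seeing the data, fragments whose later CpGs were below 5% methylated on the other strand were taken. That choice fixed the later CpGs at a low level and not the CCGG CpG, so part of any distance between them is set by it and no test is given. There the CCGG cytosine was 6.05% ± 0.332 methylated (SD over 40 mice), ranging from 5.4% to 7.04%, and the later cytosines of the same reads 0.921% ± 0.135, ranging from 0.669% to 1.36%. There were 552 such comparisons. How much of the distance the choice of fragments makes was not tested.

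Fragments above 90% on the other strand were chosen in the same way, which sets the later CpGs high. The CCGG cytosine was 91.6% ± 0.832 methylated and the later cytosines 94.3% ± 0.779 over 66 comparisons. Over the 20 comparisons covered in at least 36 mice the difference was -0.391 points. Interior cytosines gave 0.760% to 0.842% in low fragments and 94.3% to 95.2% in high ones for all read bases from the third to the last. The CCGG CpG is the first base on both strands, so the read base and the place at the cut cannot be told apart.

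**Figure D4:**
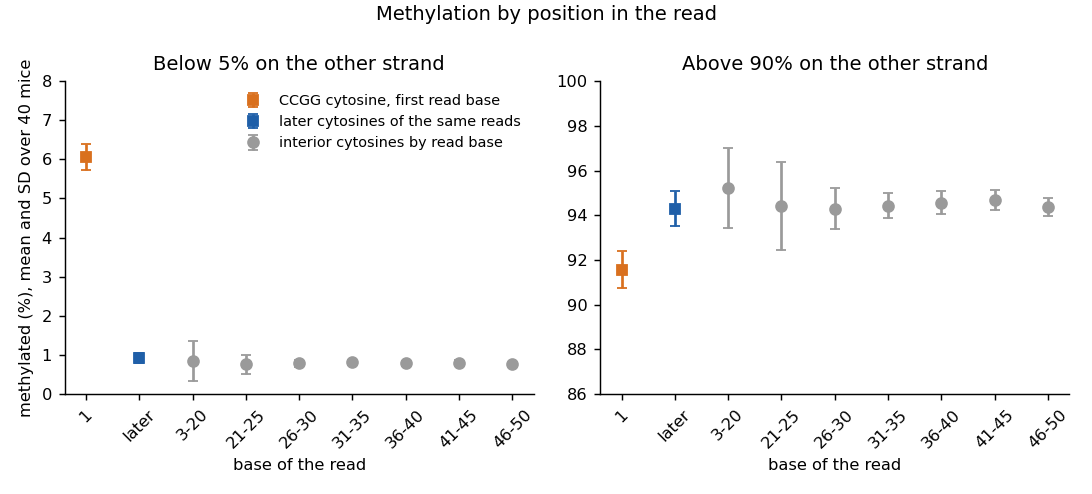
Mean percent methylated (SD over 40 mice) by base of the read, in fragments below 5% (left) and above 90% (right) on the other strand; squares are the CCGG cytosine and the later cytosines of the same reads, circles are interior cytosines. Fragments were chosen by their later CpGs and not by the CCGG CpG; in low fragments the CCGG cytosine stands at 6.05% and the later cytosines of its reads at 0.921%.

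CCGG sites also differed by the length of the fragment on either side. In a comparison added after seeing the data, the strand read from the shorter fragment was more methylated than the one read from the longer, by 0.389 ± 0.191 points over 3211 CpGs (40 of 40 mice, permutation p = 1e-05). The excess was 0.852 points with a shorter fragment of 60 to 69 bp, 0.659 at 70 to 79 bp, 0.429 at 80 to 89 bp and 0.282 at 90 to 99 bp. At 100 to 119 bp it was -0.0178 points.

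It lay at low methylation, with 0.691 points for CpGs at 0% to 5% and 0.761 at 5% to 10%, against -0.307 at 30% to 70%. The 82 CpGs covered in all mice gave -0.381 points (p = 0.0438), but the 76 of them outside Mid1 gave 0.157 points (p = 0.409). The median over CpGs was 0.0280 points (p = 0.0633).

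The strands of one CpG were then set beside opposite strands of neighbouring CpGs in the same fragment, also added after seeing the data. Beyond read sampling, the strands of the same CpG differed by a root mean square of 3.33 ± 0.646 points over 3696 comparisons. For CpGs 2 bp apart this was 4.06 points, for 3 to 5 bp 5.34, for 6 to 10 bp 5.99, for 11 to 20 bp 7.23 and for 21 to 40 bp 9.29. At 2 bp it was above the same CpG in 35 of 40 mice and at all longer distances in 40 of 40 (permutation p = 1e-05 each).

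The steps were larger for CpGs at 10% to 90% methylation. There the same CpG gave 9.03 points over 364 comparisons, neighbours 2 bp away 14.8 over 64, and neighbours 3 to 5 bp away 18.1 over 128. At 6 to 10 bp it was 17.6 points and at 21 to 40 bp 23.7. In these sets the strands of a CpG were closer to each other than to the opposite strand of neighbours at each distance. Among CpGs covered in all 40 mice, the excess of neighbours 3 to 5 bp away over the same CpG was 0.597 points (permutation p = 0.00059), against 2.02 points over all. Outside Mid1 it was 2.26 points over all and -1.46 points in CpGs covered in all mice (p = 0.0138), so the order did not hold in that deep set. The 555 pairs that join the G of a CpG to the C of the next one, in CGCG, gave 4.12 points when pooled over mice. On the same pooled scale the same CpG within a fragment gave 3.31 points and CpGs 2 bp apart 4.07. Of the CGCG pairs 33 of 546 tested were called, against 1.02% of all same-CpG pairs.

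**Figure D5:**
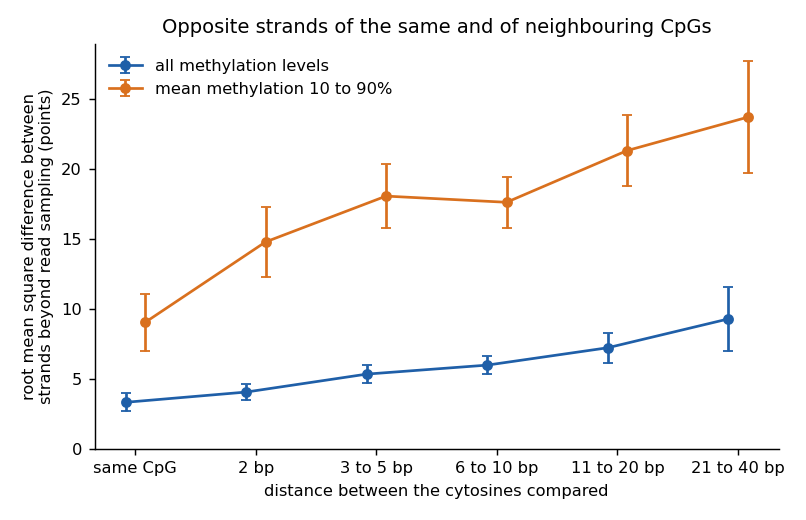
Root mean square strand difference beyond read sampling (y axis, points; bars, SD over 40 mice) against the distance in bp between the cytosines compared, for all CpGs (blue) and those at 10% to 90% methylation (orange). It is lowest for the same CpG, at 3.33 and 9.03 points.

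How much of the variation between mice both strands shared was measured from the covariance of the strands, with group means removed. A single strand had an SD between mice of 6.08 points, of which read sampling accounted for 75.4% of the variance. The variance shared by the strands was 4.11%, and 20.5% was left. For CpGs at 30% to 70%, the SD was 12.3 points, of which 7.66% of the variance was shared, a shared SD of 3.42 points. The median over single CpGs of the shared SD was 0, and 380 CpGs reached 5 points.

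Mid1 held both high and low values of this measure, given here with no test. Of the 25 CpGs with the highest shared SD, 12 were at Mid1, and the highest was 15.5 points at chrX:166435753-166435754. There the plus strand ranged from 15.8% through 43.6% to 76.1% and the minus strand from 4.35% through 33.3% to 71.9%. Mice high on one strand were thus also high on the other at that CpG, while the plus strand was on average above. The lowest at Mid1 was -5.83 points at chrX:166435792-166435793, a CCGG of the same stretch beside the 49-bp fragment. The covariance of the strands was negative at that CpG, and whether this exceeds noise was not tested. The highest elsewhere was 11.4 points at Adamts2, a procollagen peptidase gene, at chr11:50418193-50418194, with medians of 68.2% and 61.3%.

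The diets were compared with the reads of both strands summed. A two-sided Student t-test was run per CpG and adjusted over the 234042 to 237979 CpGs tested. These had a value in at least 36 mice or were among the CpGs described here. Of the 9185 to 9346 described here with a test, 0 passed an FDR of 5% for maternal diet or for post-weaning diet. Of all CpGs listed with a test, 0% were called for maternal diet in either post-weaning group, and 0.000855% and 0.00126% for post-weaning diet in mice of LF and HF dams. Limma and Welch's test also called 0 of these CpGs.

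At an unadjusted p below 0.05, maternal diet gave 358 of 9236 CpGs (3.88%) in mice fed HF and 378 of 9303 (4.06%) in mice fed LF. All CpGs tested gave 3.75% and 4%. Post-weaning diet gave 383 of 9185 (4.17%) in mice of LF dams and 425 of 9346 (4.55%) in mice of HF dams, where all CpGs tested gave 4.02% and 4.09%. Limma gave 390, 408, 414 and 456 in the same order. The CpGs read on both strands thus had shares close to those of all CpGs tested, which include them.

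Reading both strands lets a diet difference be checked on the other strand. Over 2207 CpGs at 10% to 90% methylation, the difference for a diet had the same sign on both strands in 50.7% and 52.2% of CpGs for maternal diet and in 51.9% and 52.3% for post-weaning diet. The correlation of the differences over CpGs, which share mice and libraries, ran from 0.0410 to 0.0987 in the 4 comparisons.

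CpGs were then taken where the plus strand differed by at least 8 points, a choice that makes the plus difference large by itself. There, for maternal diet in mice fed HF, the median plus difference was 9.90 points and the minus strand moved 1.05 points in the same direction. For maternal diet in mice fed LF the values were 9.70 and 0.814 points, and for post-weaning diet 10.1 and 0.586 in mice of LF dams and 9.92 and 2.08 in mice of HF dams. The minus strand thus moved by a small part of the plus difference. The 4 comparisons share groups and are not independent.

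The CpG with the smallest p in each diet comparison is given with both strands. At Plekhm2, a lysosome-positioning gene, the mean of the summed strands was 83.1% in mice of HF dams fed HF and 93.1% in mice of LF dams fed HF. The difference was -6.62 points on the plus and -13.3 on the minus strand. At Gata6, a transcription factor gene of endoderm, all mice of HF dams fed LF with both strands read stood at 0%, and mice of LF dams fed LF had a mean of 2.45%. That difference was -3.35 points on the plus and -1.14 on the minus strand.

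The same Gata6 CpG had the smallest p for post-weaning diet in mice of HF dams, where mice fed HF had a mean of 4.34%, with 4.70 points on the plus and 3.90 on the minus strand. Both Gata6 comparisons share the mice at 0%. At Nkx2-2as, an antisense transcript gene, mice of LF dams fed HF had a mean of 2.19% and those fed LF 0.152%, with 0.952 points on the plus and 2.87 on the minus strand. The CpGs were chosen by the summed reads of both strands, which favours CpGs whose strands have one sign, so nothing is read from their shared sign.

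Among the next CpGs by p, Atp5g1, which encodes a subunit of ATP synthase, gave -6.08 points on the plus and -7.05 on the minus strand for maternal diet in mice fed HF. F420014N23Rik gave 0.606 and 7.59 points for post-weaning diet in mice of HF dams. The adjusted p of the CpGs named for diet in the Student t-test lay between 0.723 and 0.826, so none of these differences passed the test.

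The strand difference itself was compared between the diets. Of the 9184 to 9346 CpGs tested, 0 changed their strand difference at an FDR of 5% in any of the 4 comparisons (0% called), and 310 (3.36%), 347 (3.73%), 319 (3.47%) and 363 (3.88%) had an unadjusted p below 0.05. Over the 227 CpGs covered in all mice, the mean plus minus minus difference per mouse was 1.68 ± 0.696 points (SD) with LF dams and LF feeding and 1.69 ± 0.589 with LF dams and HF feeding. It was 1.68 ± 0.508 with HF dams and LF feeding and 2.09 ± 0.659 with HF dams and HF feeding, with 10 mice in each.

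For maternal diet in mice fed HF the group means differed by 0.400 points (permutation p = 0.166), and in mice fed LF by -0.000400 points (p = 0.998). For post-weaning diet they differed by 0.0175 points with LF dams (p = 0.952) and by 0.418 points with HF dams (p = 0.129). Without Mid1 the 4 differences lay between 0.116 and 0.179 points. None of these differences passed its test.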

How the data were processed

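RRBS of 40 livers, 10 per group, was analysed. The authors cut DNA with MspI, made libraries and then selected molecules of 150 to 600 bp. Whether that length includes the adapters is not stated. They sequenced single reads of 50 bases and aligned them with Bismark to mm9. The Bismark version is not given in the sources used here. The authors deposited, per cytosine and animal, how many reads were methylated and how many there were (counts) and, in a separate table, the methylated fraction; totals under 10 reads were missing. There were 0 columns of no mapped mouse.

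Percent methylated was the methylated count divided by the total count of each strand. Strand differences were tested by paired Student t-tests and diet differences by Student t-tests (scipy 1.17.1), with Benjamini-Hochberg adjustment; values per mouse by permutation (100000 resamples). Limma 3.58.1 and the Cochran-Mantel-Haenszel test were alternatives. Scripts were tested on simulated data. The CpGs named were, for strand differences with an FDR below 5%, the 3 largest of each sign at CCGG sites and in interiors, the 3 with the most equal strands among the 100 deepest CpGs at 30% to 70%, the 3 with the smallest p per diet comparison, any with an FDR below 5% there, and the 4 near imprinted genes closest to the midpoint; not all are printed. Members, lists and rules were chosen with earlier results of these data known. P-values measure the spread between mice, which may share litters.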

Additional observations from a re-analysis of the deposited data

Results flagged for a closer look

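At the CpGs singled out by name, single mice stood far from the rest of their group in 4 of 96 groups of a CpG and diet combination, by Dixon's test, which flags about 1 in 20 groups by chance. At chr6:3132890-3132891 a mouse of an HF dam fed LF had a strand difference of 45.5 points. In mice of HF dams fed HF, the lowest differences at neighbouring CpGs of chromosome 13, chr13:120277239-120277240 and chr13:120277236-120277237, were -62.5 and -61.2 points. At Rps6ka1, where the strands had equal means, a mouse of an HF dam fed LF had -31.3 points.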

How the results depend on the processing

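The count of 97 CpGs with a strand difference was 299 with the Cochran-Mantel-Haenszel test, 33 with at least 20 reads (55 CpGs tested), 39 among CpGs covered in all 40 mice (227 tested), 41 without the 1% of CpGs with the highest coverage and 35 when a difference of 10 points was also required. The plus minus minus difference per mouse was 0.0338 points without that 1% and 0 as a median over CpGs, and sense minus antisense was 0 as a median. They were 1.79 and 1.88 points over CpGs covered in all 40 mice and 0.896 and 0.897 points with at least 20 reads. The shorter minus longer fragment difference was 0.0280 as a median, -0.381 in all 40 mice and -0.0968 with at least 20 reads. The CCGG minus interior root mean square reversed to -0.289 as a median, -3.12 in all 40 mice and -1.13 at 5% to 95% methylation, and was 0.609 with at least 20 reads. Leaving out Mid1, a gene chosen with its strand differences known, moved some of these values. Without its CpGs, plus minus minus was 0.0417 points, and 0.0890 at 5% to 95% methylation. In all 40 mice without Mid1, sense minus antisense was 0.103, near minus far -0.00926 and shorter minus longer fragment 0.157. CCGG minus interior was -0.619 there (-0.739 at 5% to 95%) and the excess of neighbours -1.46 points. With at least 20 reads and without Mid1, sense minus antisense was -0.000546 and near minus far 0.110 (permutation p = 0.0374). In that setting shorter minus longer fragment was 0.464 (p = 0.0113) and CCGG minus interior 1.70 points (p = 1e-05). The maternal diet difference in mice fed LF was 0.116 without Mid1. The excess of neighbours 3 to 5 bp away over the same CpG was 0.597 points in all 40 mice. The first minus later cytosine difference in high fragments was -0.391 points with 36 mice. For maternal diet in mice fed LF, the per-mouse strand difference was 0.0467 points over all CpGs a mouse covers and 0.108 at 5% to 95%. The equal-strand CpG at Pcdhgc5 moved to -0.0121 points in the Cochran-Mantel-Haenszel setting and to -0.0336 without the 4 mice with the fewest reads, and that near Cybrd1 to 0.120 without them. The cause of these changes was not tested. The 82 alternatives that gave the same direction and side of the threshold include those of changed size above, and 87 for single CpGs did likewise. No paired analysis was possible because the labels do not tie mice of different groups to each other. At a median of 21 reads per strand, read sampling gave the strand difference of one mouse an SD of 6.13 points.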
